A study of Mus musculus with 1457 samples.

Results

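The erythroid-like cells of the aorta-gonad-mesonephros (AGM) region described here were the cells in which at least 1% of all reads came from 7 globin genes, whichever sort gate had caught them. The genes were the alpha-like Hba-x, Hba-a1 and Hba-a2 and the beta-like Hbb-y, Hbb-bh1, Hbb-bs and Hbb-bt. The rule found 83 cells, 5.70% of all cells, in 10 of 19 groups, and left 1374 other cells. The cells were thus chosen by their globin reads, and every difference between them and other cells is a description without a test.

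The study profiled single cells of ICR mouse embryos by Smart-seq2, a full-length cDNA method without molecular identifiers, after sorting them from the AGM, where blood stem cells arise in the wall of the dorsal aorta. All gates excluded the red cell antigen TER119 and CD45. The endothelial (Endo) gate took CDH5+ cells without CD41, KIT or reporter, and the hemogenic endothelium (HE) gate took the same cells with the GFI1 or the RUNX1b reporter. Cells in endothelial-to-hematopoietic transition (EHT) were CDH5+ KIT+ CD41+ GFI1+, intra-aortic hematopoietic cluster (IAHC) cells also had GFI1b, and mesenchymal (Mes) cells had RUNX1b without CDH5.

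A group of at least 5 globin-rich cells came from 4 sorts, which together held 71 of the 83. Of these, 16 were E10.5 HE cells of Gfi1:Tomato/WT Gfi1b:GFP/WT embryos (Gfi1 HE). Another 31 were E10.5 HE cells of Runx1b:RFP/WT embryos (Runx1b HE), and 10 were E10.5 Mes cells of the same genotype (Mes). The last 14 were E11.5 IAHC cells of Gfi1:Tomato/WT Gfi1b:GFP/WT embryos (E11.5 IAHC). Smaller numbers came from E10.5 HE cells of Gfi1:Tomato/Tomato Gfi1b:GFP/GFP embryos (Gfi1 KO) and from E10.5 Mes cells of Runx1b:RFP/RFP embryos. Others came from E11.5 HE and Endo cells titled heterozygous for Gfi1, and from E10.5 HE cells titled Runx1b KO whose genotype field was heterozygous. For 1 further cell, of an Endo sort titled heterozygous for Gfi1, the labels gave E11.5 in one place and E10.5 in another. By these genotypes even the heterozygous embryos carried a reporter allele. In the Gfi1 KO group 94.6% of the deep cells outside the globin-rich ones still had Gfi1 reads, so reads of the gene do not check that label, and counts per gene do not separate the Runx1b isoform. No label named an embryo or litter, so each group was 1 sample.

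Red blood cells are made in waves. The first, primitive erythroblasts of the yolk sac, enter the circulation as large nucleated cells and mature there in step, while definitive red cells are made later from yolk sac progenitors and in the fetal liver. Primitive cells switch their globins as they mature. The zeta-like Hba-x gives way to the adult alpha genes, and among the beta-like genes Hbb-bh1 gives way to Hbb-y, while definitive cells of later stages make mainly the adult beta genes Hbb-bs and Hbb-bt. KLF1, an erythroid transcription factor that binds CACCC boxes, GATA1, the main regulator of red cell genes, and SMIM1, which carries the Vel blood group, mark the lineage.

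Promoters of embryonic and adult globin genes are shown because the balance between such genes is what the cells are compared on. The promoter of Hbb-bh1 was not available in the source used here and is not shown. Each line gives the 120 bases before the transcription start in 5′ to 3′ direction on the gene's strand, from RefSeq (GRCm38.p6), with the CACCC box in capitals.
Hba-x: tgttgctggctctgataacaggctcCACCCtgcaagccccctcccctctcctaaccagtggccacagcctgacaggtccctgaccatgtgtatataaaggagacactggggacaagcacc
Hba-a1: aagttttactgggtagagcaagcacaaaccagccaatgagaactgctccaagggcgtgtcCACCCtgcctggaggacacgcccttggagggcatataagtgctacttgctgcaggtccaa
Hbb-y: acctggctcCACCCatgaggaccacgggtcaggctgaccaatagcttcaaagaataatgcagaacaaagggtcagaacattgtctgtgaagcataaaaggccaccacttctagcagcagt
Hbb-bs: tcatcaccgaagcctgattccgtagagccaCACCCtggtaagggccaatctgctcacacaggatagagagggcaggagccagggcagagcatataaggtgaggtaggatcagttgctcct
The windows were chr11:32276480-32276599 (Hba-x, plus strand), chr11:32283552-32283671 (Hba-a1, plus), chr7:103853208-103853327 (Hbb-y, minus) and chr7:103827929-103828048 (Hbb-bs, minus). Counted back from the start, the box began 95 bases before it in Hba-x, 60 in Hba-a1 and 90 in Hbb-bs, and lay farther back in Hbb-y. The letters CACCC occurred on either strand in 31.7% of 32851 promoter windows of this length, and on the gene's own strand in 16.2%. The window of Hba-a2 (chr11:32296372-32296491) matched that of Hba-a1 at a shift of 3 bases, with 297 of 297 bases the same. The transcripts of Hba-a1 and Hba-a2 were 99.8% identical and those of Hbb-bs and Hbb-bt 93.1%, so how reads were shared within these pairs is uncertain and the pairs were summed.

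Globin-rich cells were found in most HE gates, in Mes and in E11.5 IAHC, but not among EHT cells. They made up 16.8% of Gfi1 HE (exact 95% binomial interval 9.94 to 25.9), 11.8% of Runx1b HE (8.18 to 16.4) and 9.35% of Mes (4.57 to 16.5). In E11.5 IAHC they were 63.6% (40.7 to 82.8) of 22 cells. In the same gate at E10.5 they were 0 of 42 cells, where a count of 0 allows up to 7.14%. The EHT groups held 0 of 41 cells at E10.5 and 0 of 42 with conflicting stage labels, which allow up to 7.32% and 7.14%. The HE group with conflicting labels held 0 of 43 (up to 6.98%). Among Endo sorts they were 0 of 74 in the Gfi1 line and 0 of 53 in the Runx1b line at E10.5 (up to 4.05% and 5.66%), 1 of 16 at E11.5 and 1 of 41 with conflicting stage labels. The cells sorted with angiotensin-converting enzyme (ACE) as a further marker held 0 of 39 in HE, 0 of 14 in Endo and 0 in the ACE+ GFI1- sort, with limits of 7.69%, 21.4% and 2.59%.

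Sorts labelled KO in their title or genotype were counted separately. The HE cells titled Runx1b KO had 3 (1.08%, interval 0.224 to 3.13). The Runx1b KO Mes cells had 1 of 91 (1.099%, 0.028 to 5.97) and Gfi1 KO HE 4 of 42 (9.52%, 2.66 to 22.6). Of these 4 Gfi1 KO cells 1 had only 65 reads, and among cells with at least 50000 reads the count was 3 of 40. The interval of the titled KO group lay below that of Runx1b HE, and that of Gfi1 KO overlapped with Gfi1 HE. These intervals cover counting error only, and embryo, sort and genotype cannot be told apart. Across 4 pairs of HE and Endo sorts the share was higher in HE in 2 of 4, by 16.8 percentage points in the Gfi1 line and 11.8 in the Runx1b line at E10.5. The difference was 0 in the ACE sorts and -1.25 in the Gfi1 line at E11.5, where 1 Endo and 1 HE cell counted with under 100 reads. The mean was 8.42% in HE and 1.56% in Endo, a difference of 6.86 ± 8.89 points (SD, n = 4), with p = 0.5 by an exact two-sided permutation test, which 4 pairs do not let fall below 0.05. Among cells with at least 50000 reads the E11.5 pair was at 2.70% in HE and 0 in Endo. HE was then higher in 3 of 4, with a mean difference of 7.84 points and p = 0.25 by the same exact permutation test. The ACE pair differed by 0 and had no sign to flip, so p could not fall below 0.25 in this or the previous test. With the sorts of conflicting labels added the mean difference was 4.997 points (p = 0.5, exact permutation test).

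**Figure D1:**
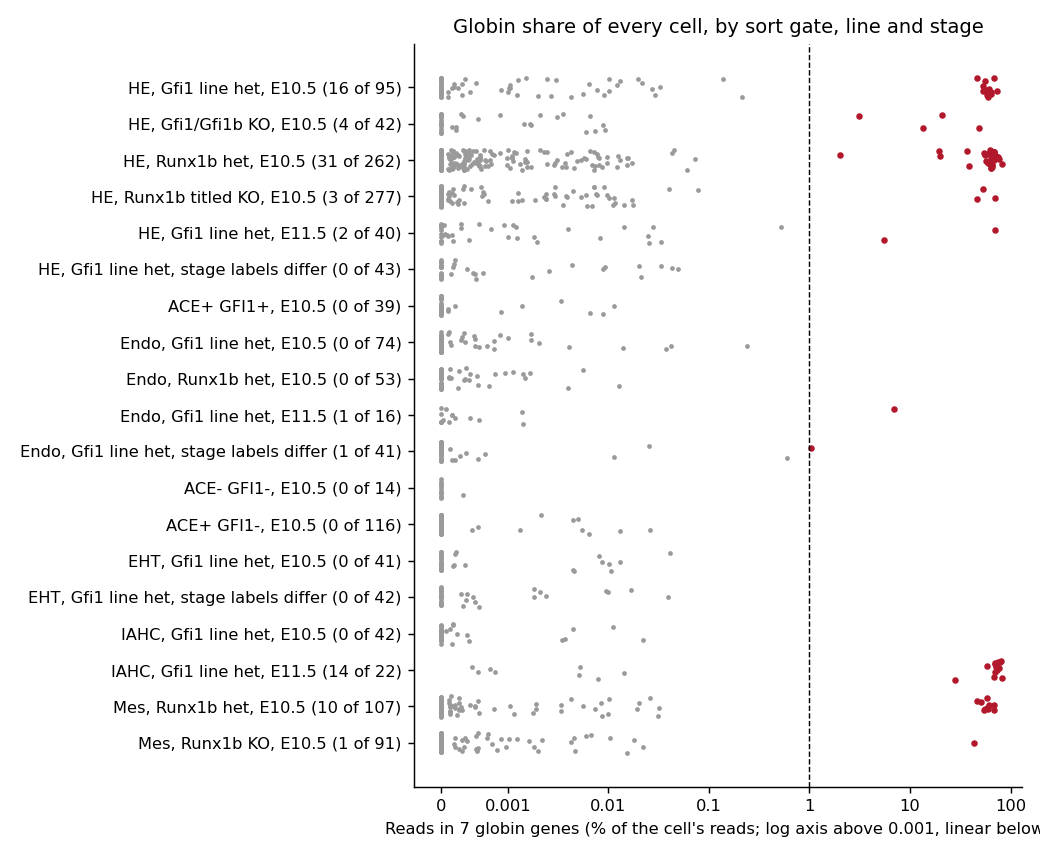
Share of each cell's reads in the 7 globin genes (log axis, percent), 1 point per cell, by sort group; the line marks the 1% rule. Globin-rich cells of the 4 largest groups reached 81.7%, and cells near the line were few.

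The rule met few cells near its border. Globin took at least 40% of reads in 71 of the 83 cells and at least 50% in 66. The median share was 59.7% in Gfi1 HE (46.3 to 73.97), 63.7% in Runx1b HE (1.99 to 81.6), 59.1% in Mes (46.8 to 68.1) and 71.98% in E11.5 IAHC (28.3 to 81.7). Just inside the rule stood the Endo cell of conflicting stage labels at 1.04% and a Runx1b HE cell at 1.99%. Just outside stood an Endo cell of conflicting stage labels at 0.597% and an E11.5 HE cell at 0.519%. At least 1 globin read was found in 525 of the 1374 other cells (38.2%), but the globin-rich cells held 99.95% of all globin reads.

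Depth differed between the sorts and was highest in E11.5 IAHC. Globin-rich cells had a median of 1038450 reads in Gfi1 HE, 789616 in Runx1b HE, 669448 in Mes and 4375050 in E11.5 IAHC, and the other cells of these sorts 628989, 559001, 617453 and 3434490. They had reads of fewer genes, with medians of 4888, 3634, 4875 and 2720.5 against 6609, 6022, 6349 and 7772 in the other cells. The order held when each cell was thinned to 50000 reads outside the globin genes, with medians of 4133.5, 3142, 4089 and 1822.5 genes against 5247, 4887, 5129 and 5313. A total of 3 members had under 100 reads (65, 43 and 18) and were left out of all counts over 80 cells below.

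The label was checked against markers that the rule had not used. Of the 80 cells, Klf1 was read in 78, Gata1 in 72 and Smim1 in 72. Among 1335 other cells of at least 50000 reads Klf1 was read in 17 and Gata1 in 20, while Smim1 was read in 12.4%. Klf1 ranged from 928 to 2922 RPM (median 1905) in Gfi1 HE, from 0 to 4050 (1620) in Runx1b HE, from 547 to 1541 (961) in Mes and from 223.6 to 2970 (1123) in E11.5 IAHC. RPM is reads per 1000000 reads outside the 7 globin genes here and below, since the globin share alone would lower every other gene. Among other cells of the same gates the highest Klf1 value was 52.4, so the groups overlapped only through the 1 Runx1b HE cell at 0. Alas2, the first enzyme of heme synthesis in red cells, was read in 79 of 80 and in 14.2% of others. The exception to all of these was the Endo cell at 1.04% globin, which had 0 reads of Klf1, Gata1, Smim1 and Alas2 but 501 reads of Cdh5 and 733 of Kdr. For this cell the data go against the label.

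Genes of the gates themselves were rarely read. Cdh5, the endothelial cadherin of the gate, was read in 1 of 16 Gfi1 HE, 3 of 31 Runx1b HE, 0 of 10 Mes and 1 of 14 E11.5 IAHC globin-rich cells, against 1061 of 1335 other cells of all gates. Kit, the stem cell factor receptor by which IAHC were sorted, was read in 1 of 14 of the E11.5 IAHC cells, at 79.5 RPM, against 7 of the 8 other cells of that sort. Gfi1 was read in 0 of 16 Gfi1 HE and 0 of 14 E11.5 IAHC cells. Runx1 was read in 1 of 16, 4 of 31, 1 of 10 and 1 of 14. Gfi1b, a repressor that red cell precursors need, was instead read in 13 of 16, 20 of 31, 9 of 10 and 14 of 14. Its median was 383 RPM in Gfi1 HE, 369 in Runx1b HE, 192.4 in Mes and 378 in E11.5 IAHC. Itga2b, which encodes CD41, was read in 9 of 16, 10 of 31, 1 of 10 and 3 of 14, and Ptprc, which encodes CD45, in 0 of 80. RNA and surface protein need not match, and how these cells passed the gates was not tested.

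Embryonic globins made up nearly all of the globin counted. Composition is given per transcript length, as a share of the alpha-like or of the beta-like genes, and the groups are means over 4 sorts. Hba-x was 80.9 ± 5.14% of alpha-like globin (SD, n = 4) and exceeded the adult alpha genes in 77 of 80 cells. Hbb-y was 75.1 ± 6.68% of beta-like globin, Hbb-bh1 24.2 ± 6.93% and the adult beta genes together 0.775 ± 0.290%. Hbb-y exceeded Hbb-bh1 in all 80 cells. The adult beta genes passed 1% of beta-like globin in 20 of 80 cells and 5% in 0 of 80.

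The balance of the embryonic genes was further towards the late pattern in the E11.5 group. Hbb-bh1 was 22.7 to 40.9% (median 30.8) of beta-like globin in Gfi1 HE, 22.1 to 34.6% (31.2) in Mes and 1.26 to 35.2% (21.7) in Runx1b HE. In E11.5 IAHC it was 4.75 to 20.5% (17.4). No E11.5 IAHC cell reached the lowest Gfi1 HE or Mes cell, while they overlapped with Runx1b HE. Hba-x was 78.1 to 90.96% (85.5) of alpha-like globin in Gfi1 HE, 81.4 to 86.8% (85.1) in Mes, 11.8 to 88.2% (79.8) in Runx1b HE and 60.3 to 82.04% (75.5) in E11.5 IAHC. These ranges overlapped for every pair of groups. The E11.5 HE cell with at least 50000 reads had 15.6% Hbb-bh1 and 75.8% Hba-x, within the range of E11.5 IAHC and below all Gfi1 HE cells. It had 309784 reads, against a median of 2239630 in the other cells of its sort. With 70.1% globin and Alas2 at 33969 RPM it was close to 1 E11.5 IAHC cell. That cell had 69.4% globin, 15.8% Hbb-bh1 and Alas2 at 32384 RPM. Whether these cells were independent was not tested. Stage, gate and sort cannot be told apart for the E11.5 cells, since 1 HE cell does not separate them, and no test was possible with 1 group at that stage.

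Composition was also compared among cells of like globin load. Among cells with 60 to 75% globin, median Hbb-bh1 was 30.01% in 7 Gfi1 HE cells, 24.6% in 20 Runx1b HE, 31.6% in 4 Mes and 17.4% in 8 E11.5 IAHC cells. The ranges were 22.7 to 33.3, 16.4 to 35.2, 28.8 to 34.6 and 14.8 to 20.5%, so E11.5 IAHC overlapped with Runx1b HE and lay below Gfi1 HE and Mes. Median Hba-x was 84.6, 80.7, 83.9 and 75.5%, with ranges of 78.1 to 86.3, 69.4 to 88.2, 81.4 to 85.8 and 72.1 to 82.04%. Within Gfi1 HE, cells with more globin had less Hba-x (r = -0.867, rho = -0.685, n = 16) and less Hbb-bh1 (r = -0.764, rho = -0.574) and more Alas2 (r = 0.876, rho = 0.912). These values describe cells of 1 sort, and each share is taken from the same reads as the load. In E11.5 IAHC the same relations were r = -0.449, rho = -0.758 for Hba-x and r = -0.362, rho = -0.420 for Hbb-bh1 (n = 14). In Runx1b HE they went the other way, with r = 0.824, rho = 0.140 for Hba-x and r = 0.650, rho = 0.282 for Hbb-bh1 (n = 31), and in Mes they were r = -0.711, rho = -0.721 and r = -0.013, rho = 0.152 (n = 10). Alas2 was higher with more globin in these 3 groups as well, with r of 0.582 in E11.5 IAHC, 0.580 in Runx1b HE and 0.619 in Mes.

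**Figure D2:**
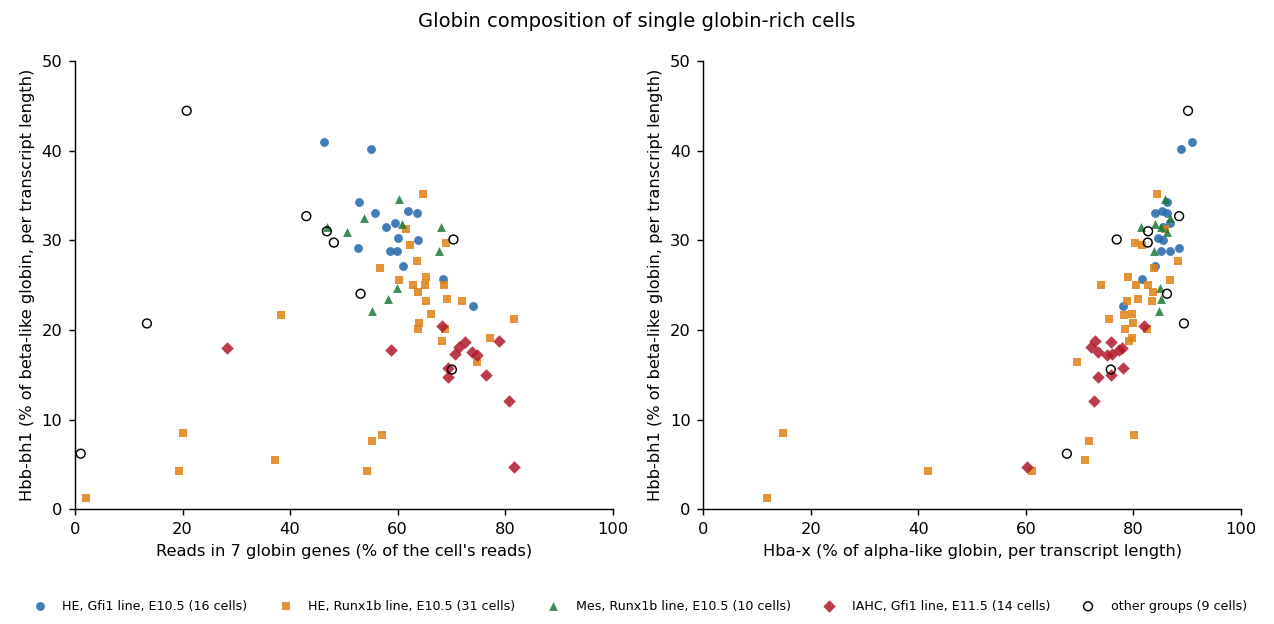
Hbb-bh1 as a percentage of beta-like globin per transcript length, against the globin share of reads (left) and against Hba-x as a percentage of alpha-like globin (right), 1 point per cell for 80 cells; shapes give the sort. E11.5 IAHC cells lie at or below 20.5% Hbb-bh1, and 7 Runx1b HE cells lie under 10%.

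The globin-rich Runx1b HE cells fell into unlike sets by Hbb-bh1, a division made after the values were seen. In 7 cells it was 1.26 to 8.55% of beta-like globin (median 5.53) and in 24 cells 16.4 to 35.2% (23.9). Smim1 was read in 1 of the 7 and in 24 of 24. The anion exchanger gene Slc4a1 had a median of 869 RPM in the 7 and 4401 in the 24. Hemgn, a nuclear protein of erythroblasts, was read in 2 of 7 and 23 of 24. Genes of blood progenitors and other blood lineages were read more often in the 7. Itga2b was read in 6 of 7 against 4 of 24, Runx1 in 4 of 7 against 0 of 24, and the progenitor factors Myb and Gata2 each in 3 of 7 against 0 of 24. Of the 7 cells 5 had megakaryocyte genes summing to 3189 to 5442 RPM, against at most 431 in the 24. The 7 included the cell with macrophage genes described with the other cell types, at 1.99% globin. Without it Itga2b was read in 5 of 6, Runx1 in 3 of 6, and Myb and Gata2 each in 2 of 6. Klf1 was read in all 7 (median 348 RPM) and in 23 of 24 (1768), and Gata1 in 6 of 7 (543) and 20 of 24 (642). Median depth was 664130 reads in the 7 and 811006 in the 24, with 3290 and 3964.5 genes read. Median globin load was 37.2% in the 7 and 65.1% in the 24.

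**Figure D3:**
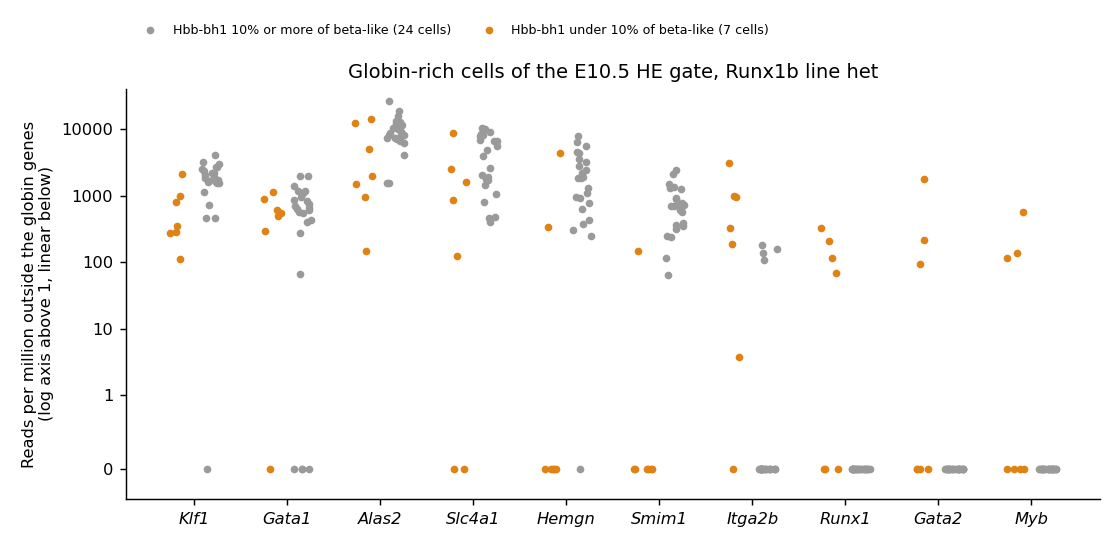
RPM, reads per 1000000 reads outside the 7 globin genes (log axis above 1), of marker genes in Runx1b HE globin-rich cells, 1 point per cell, for the 7 cells with Hbb-bh1 under 10% of beta-like globin and the 24 cells above. Smim1 was read in 1 of 7 and 24 of 24 cells, Runx1 in 4 of 7 and 0 of 24.

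Red cell programmes were next described gene by gene, with the other cells of the same sort as the comparison. Reads were summed over the cells of each side, a gene was measured where a side had at least 10 reads and 5 RPM, and at least 2-fold was called. Sums under 3 reads were raised to 3, so ratios against 0 reads are lower bounds, also in the medians of lists. Of all genes measured, 15.2% were called higher and 45.7% lower in Gfi1 HE, 15.9% and 46% in Runx1b HE, 14.6% and 52.5% in Mes and 16.5% and 56% in E11.5 IAHC. In all 4 groups 405 of 9343 genes were higher (4.33%) and 1856 lower (19.9%), and the median log2 ratio was -1.03. Scaled to all reads, globin included, 1.78% were higher and 51.7% lower, and the median of all genes moved by -1.41, so list medians are best read against that of all genes.

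Heme synthesis genes were higher with few exceptions. Of 14 heme genes measured in all 4 groups, 13 were higher in all 4 against a background of 4.33%, with a median log2 ratio of 4.97. The sum of the list in globin-rich cells was 34236 RPM in Gfi1 HE, 27284 in Runx1b HE, 21672 in Mes and 42244 in E11.5 IAHC, against 811, 787, 730 and 926 in the other cells. Alas2 ranged from 1849 to 20634 RPM (median 7725) in Gfi1 HE, 146.99 to 26096 (8212) in Runx1b HE, 2239 to 6175 (4341) in Mes and 2632 to 32384 (14216) in E11.5 IAHC. No other cell of these sorts passed 102.2, and the lowest Alas2 values were in Runx1b HE. Fech, which inserts iron into the ring, was at 4668, 4839, 3247 and 6725 RPM against 46.3, 35.1, 40.96 and 80.1. The 1 gene lower in all 4 was Alas1, the form of the first enzyme used by other tissues, at 5.49 to 13.8 against 47.1 to 89.1.

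Iron supply followed. Of 15 genes 9 were higher and 0 lower, with a median of 2.75. Fth1, the ferritin heavy chain, reached 21765, 36838, 17991 and 41376 RPM against 1187, 1044, 1124 and 1379 in the other cells. Tfrc, the transferrin receptor, was at 931, 558, 599.6 and 951 against 48.9, 17.1, 35.7 and 45.8. Slc25a37, the mitochondrial iron importer mitoferrin, was at 2419, 2219, 2436 and 3325 against 11.6, 14.1, 19.8 and 16.2. The 6 not called alike in all groups included Iscu and Pcbp1, with mean log2 ratios of 0.76 and -0.35. Scaled to all reads, 5 genes were higher and 3 lower, and Slc11a2, Ftl1, Slc40a1 and Ncoa4 were no longer called higher.

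Genes of the red cell membrane were higher in 17 of 21 and lower in 0 of 21, with a median of 7.91. Slc4a1, the anion exchanger gene, ranged from 776 to 6568 RPM (median 3907) in Gfi1 HE, 0 to 10377 (2474) in Runx1b HE, 978 to 2463 (2011) in Mes and 109.04 to 5004 (3065) in E11.5 IAHC. Among other cells of these sorts it was read in 2 Gfi1 HE cells and 1 Runx1b HE cell, the highest at 140.5. Summed over cells, it was at 3833, 3589, 1753 and 2615 against 2.78, 0.0075, 0 and 0. The Rhesus genes Rhd and Rhag and the Kell gene Kel were also higher in all 4. The 4 not called were Add1, Cd24a, Cd47 and Slc2a1, which the other cells of these sorts expressed as well.

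Oxidant defence was higher in 7 of 11 genes and lower in 1 of 11 (Nxn), with a median of 3.86. The carbonic anhydrase gene Car2 was at 10053, 9594, 7054 and 13275 RPM against 10.4, 5.50, 18.9 and 145.4. Prdx2, an abundant peroxiredoxin of red cells, was at 9877, 9773, 8546 and 13804 against 677, 684, 743 and 748. Sod1 was not called in Gfi1 HE, at 2454 against 1364. Of genes of terminal maturation 10 of 17 were higher and 0 lower, with a median of 3.17. Among them were Hemgn, at 1700, 1595, 1462 and 788 against at most 10.4, and Bpgm, which makes the metabolite that lowers the oxygen affinity of hemoglobin, at 2302, 2616, 1587 and 2047 against 25.99 to 112.4.

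Regulators varied more. Of 20 erythroid transcription factor genes 6 were higher in all 4 groups (Klf1, Gata1, Tal1, Nfe2, Gfi1b and E2f2) and 2 lower (Bcl11a and Sox6), with a median of 1.39 that was -0.018 when scaled to all reads. On that scale 2 of 20 were higher and 5 lower, and Gata1, Tal1, Gfi1b and E2f2 were not called higher. Gata1 was at 764, 679, 475 and 530 RPM against 0.35, 0.015, 0 and 150, the last in the 8 other E11.5 IAHC cells, of which 3 had Gata1 reads. Nfe2, a factor of globin gene activation, was at 418, 949, 362 and 1552 against 28.3, 7.06, 1.52 and 145.5. Of 11 erythropoietin signalling genes 3 were higher (Epor, Pim1 and Bcl2l1) and Kit was lower, with a median of 1.15 that was -0.26 when scaled to all reads, where 1 was higher, 2 were lower and Pim1 and Bcl2l1 were not called higher. Epor, the erythropoietin receptor, was at 522, 381, 240 and 411 against 21.1, 21.04, 8.33 and 32.1. Jak2, its kinase, was not called, at 52.05, 44.6, 76.6 and 85.8 against 31.6, 22.2, 35.8 and 57.3.

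A list of embryonic against definitive genes, which holds genes of both kinds, was lower in 8 of 10 and higher in 0. The background was 19.9% lower, and the median of the list was -4.13. The comparison was with other cells of the sorts and not with definitive red cells. It therefore does not tell which kind of red cell these were. Bcl11a and Sox6 encode repressors that silence embryonic beta-like globin genes in definitive cells. Bcl11a was read in 2 of 80 globin-rich cells and 886 of 1335 others, at 4.61, 0, 0 and 0.70 RPM against 100.7, 54.5, 48.97 and 192.3. Sox6 was read in 1 of 80 and 614 of 1335, and in none of the 71 cells of the 4 groups. The fetal RNA-binding genes Lin28b, Igf2bp1, Igf2bp2 and Igf2bp3 and the chromatin gene Hmga2 were also lower, for example Hmga2 at 0.45, 6.82, 0.34 and 3.85 against 531, 363, 463 and 600.3. The globin genes outside the rule were higher in 3 of 3, among them Hbb-bh0 at 652, 530.3, 1034 and 921 RPM and Hbq1b at 324, 357, 402 and 838, both with at most 0.036 in the other cells.

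Of genes outside all lists, those with the highest ratios in all 4 groups included Cldn13, a claudin, at 261.1, 406, 308 and 256.1 RPM against 0 reads in each group of other cells. Redrum, a long non-coding RNA of red cells, was at 333.5, 116.7, 344.8 and 177.2 against 0, and Mrap, the accessory protein of the melanocortin receptor, at 171.3, 213.97, 128.1 and 130.5 against 0. Adra2b, an adrenergic receptor gene, was at 834.5, 667, 453 and 880 against at most 2.09. The metallothionein gene Mt1 was at 4016, 2787, 4115 and 4247 against 1.60, 0.43, 22.5 and 39.7. The zinc and manganese carriers Slc39a8 and Slc30a10, the aquaporin Aqp3, the cathepsin Ctse, Krt15, Fam46c and Lmx1a completed the 12. Those with the lowest ratios included Meis2, a homeobox gene, at 0.15, 0, 0 and 0 against 116.8, 138.5, 192.3 and 86.3, and the Notch ligand gene Jag1 at 1.04 and 3.41 in Gfi1 HE and Runx1b HE against 279 and 353, and at 0 reads in Mes and E11.5 IAHC. Zfp521, Slit2, Synpo, Pde3a and Ptgis were at 0 reads in all 4 groups of globin-rich cells.

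**Figure D4:**
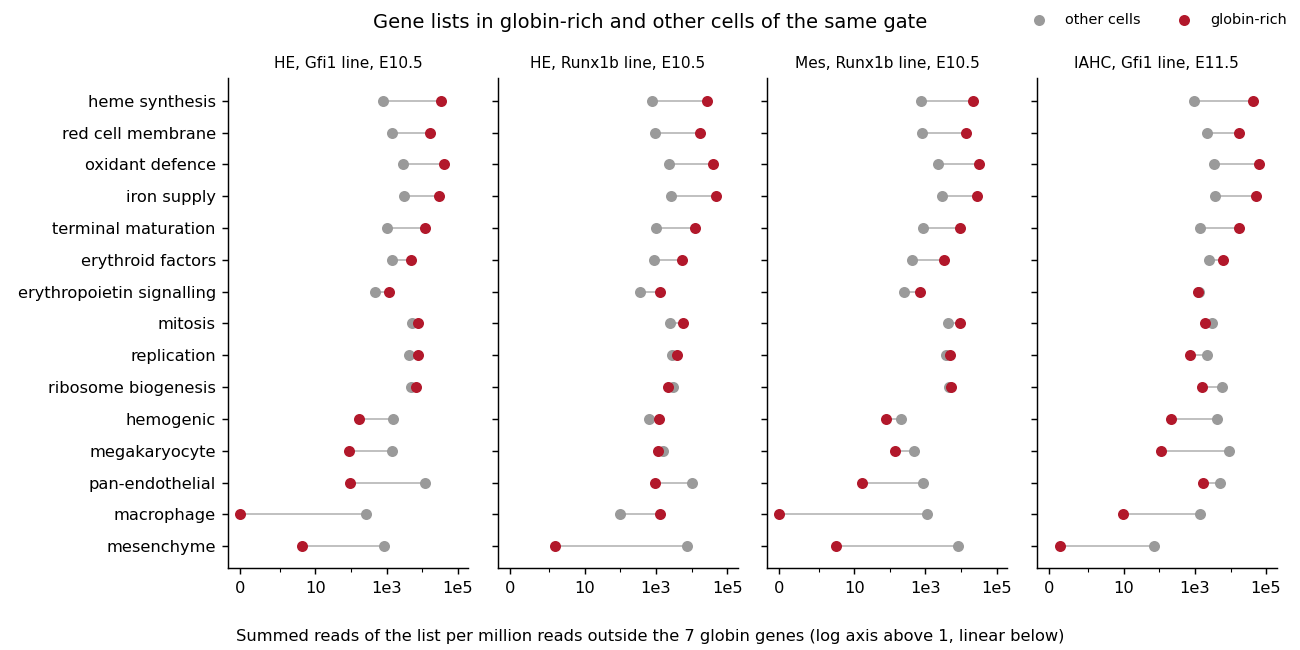
Summed RPM of each gene list (log axis above 1), in globin-rich cells (red) and other cells of the same sort (grey), for the 4 groups with at least 5 globin-rich cells. Heme synthesis was at 34236 against 811 in Gfi1 HE and at 42244 against 926 in E11.5 IAHC.

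Endothelial and mesenchymal markers were low in most globin-rich cells. Of 20 pan-endothelial genes the median globin-rich cell had reads of 0 in Gfi1 HE, Runx1b HE and E11.5 IAHC and 0.5 in Mes, against 19, 18, 15 and 2.5 in other cells. Their sum was 91.01, 926, 16.1 and 1709 RPM against 11947, 9997, 844 and 4914, with 13 of 19 lower in all 4. Most of it lay in few cells, since 5 of 80 cells had reads of at least 10 of these genes. These were the Endo cell at 1.04% globin, a Runx1b HE cell at 38.3% (20 genes), a titled KO HE cell at 46.8% (20), an E11.5 IAHC cell at 28.3% (19) and a Gfi1 HE cell at 46.3% (11). The Runx1b HE cell had both Cdh5 at 1278 and Slc4a1 at 1797 RPM. Whether such wells held more than 1 cell was not tested. Without these cells the median log2 ratio of the pan-endothelial list went from -5.00 to -8.89. The mesenchymal genes summed to 4.16, 1.45, 3.09 and 0.29 RPM against 825, 7644, 8211 and 70.3, and Col1a2, a defining collagen, was read in 0 of 80.

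Markers of the blood-forming transition and of other lineages differed between the groups. Hemogenic and transition genes, such as Runx1 and Kit, summed to 162.98 RPM in Gfi1 HE, 79.3 in Mes and 214.5 in E11.5 IAHC, against 1557, 207.04 and 4161 in the other cells. In Runx1b HE they summed to 1185 against 624, with 7 of 15 genes higher and 5 lower. By cell the order was the reverse, with a median of 75.6 RPM in the globin-rich cells against 470 in the others. Of the 31 cells 13 were at 0, and the highest, at 7628, was the cell with macrophage genes. Megakaryocyte genes were at 90.1, 1142, 135.3 and 109.9 RPM in Gfi1 HE, Runx1b HE, Mes and E11.5 IAHC against 1424, 1552, 485 and 9343. Epithelial genes summed to 495 RPM in Runx1b HE against 80.5, with 27 of 31 cells at 0 and the highest cell at 10343. In Gfi1 HE, Mes and E11.5 IAHC they were at 0, 0 and 119.9 against 103.8, 61.6 and 85.3. Mast cell and granulocyte genes were at 0 to 55.2 RPM in the 4 groups against 57.1 to 1446, and sympathetic and neural crest genes at 0 to 38.4 against 0 to 28.5. What part these reads have in the other results was not tested.

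Macrophage genes were at 0 in all 16 Gfi1 HE and all 10 Mes globin-rich cells, and at 0 to 69.3 RPM in E11.5 IAHC. In Runx1b HE they summed to 1281 against 94.8 in the other cells, and 1 cell held 86.5% of those reads. It was the cell at 1.99% globin, with Csf1r, the receptor that marks macrophages, at 2383, Adgre1 at 2254, Spi1 at 2072 and Itga2b at 3131 RPM. It also had Alas2 at 945, Gata1 at 501 and Klf1 at 280. Without it the sum was 185.7, and 23 of the other 30 cells had none of these genes.

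Cell cycle genes divided the globin-rich cells. Of 20 mitosis genes, such as Mki67 and Top2a, Gfi1 HE cells had reads of 1 to 20 (median 19), Mes cells of 15 to 20 (19), Runx1b HE cells of 0 to 20 (5) and E11.5 IAHC cells of 0 to 19 (0). At least 10 were read in 15 of 16 Gfi1 HE and 10 of 10 Mes cells, in 15 of 31 Runx1b HE cells and in 2 of 14 E11.5 IAHC cells. Thinned to equal depth, the medians were 19, 18.5, 5 and 0 in that order. Among cells with 60 to 75% globin they were 19 in Gfi1 HE, 18 in Mes, 18.5 in Runx1b HE and 0 in E11.5 IAHC. Of the 20 replication genes at least 10 were read in 15 of 16, 10 of 10, 14 of 31 and 1 of 14. Against other cells of the same gate, mitosis genes were called higher in all 4 groups in 1 of 20 (Aurka) and replication genes in 0 of 20, with median log2 ratios of 0.61 and -0.41. The E11.5 HE cell with at least 50000 reads had reads of 0 mitosis genes, as had 9 of the 14 E11.5 IAHC cells.

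**Figure D5:**
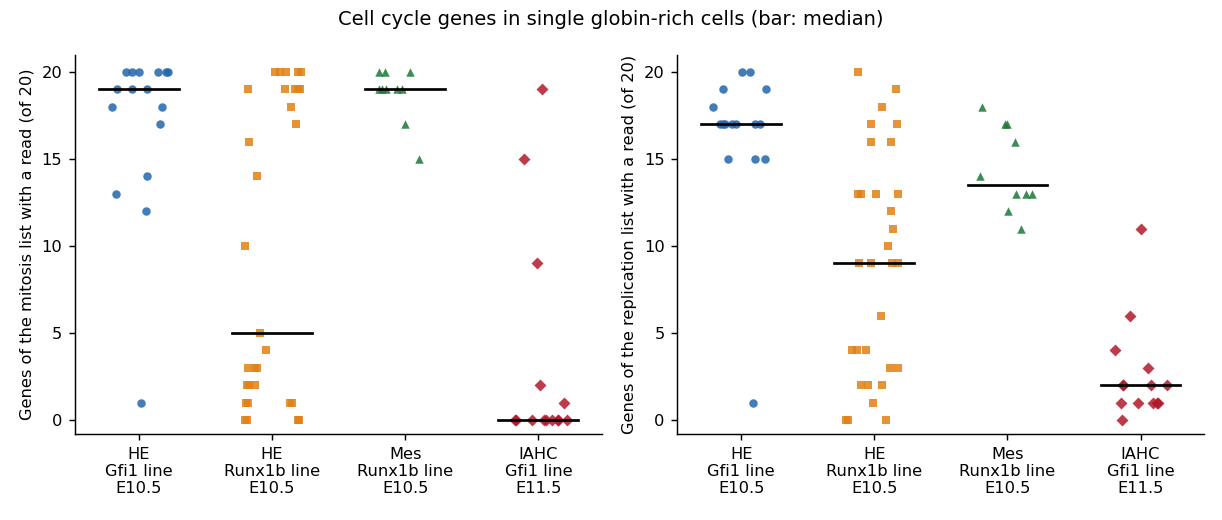
Number of the 20 mitosis genes (left) and of the 20 replication genes (right) with a read in each globin-rich cell, by sort, with bars at the median. Of the cells drawn, 15 of 16 Gfi1 HE and 10 of 10 Mes cells had at least 10 mitosis genes, and 2 of 14 E11.5 IAHC cells.

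Globin-rich cells of E11.5 IAHC were then set against those of the 3 E10.5 groups, a comparison chosen after values were seen and without a test. Of 7630 genes measured, 3.33% were at least 2-fold above all 3 groups and 13.7% below. Below were 14 of 20 mitosis genes, 14 of 19 replication genes and 8 of 17 ribosome biogenesis genes. The sums were 7897, 5626, 9625 and 1950 RPM for mitosis in Gfi1 HE, Runx1b HE, Mes and E11.5 IAHC, and 7619, 3774, 4768 and 739.98 for replication. Prim1, a primase subunit, and Bub1b, a spindle checkpoint kinase, had 0 reads in all 14 E11.5 IAHC cells, against 235.5, 158.7 and 194.04 RPM of Prim1 and 212.9, 148.4 and 277.1 RPM of Bub1b at E10.5.

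Above were 5 of 19 terminal maturation genes, among them Bnip3l, which clears mitochondria from maturing red cells, at 218.7, 465.6, 396 and 1431 RPM. Ube2l6 was at 686, 1298, 1136 and 2936, and Cdkn1b, an inhibitor of cell division, at 6.54, 16.4, 10.3 and 67.5. The theta-like globin Hbq1b was at 838 against 324 to 402, and the catalase gene Cat at 1087 against 210 to 461. Of 16 glycolysis genes 4 were above (Gapdh, Pgk1, Pgam1 and Eno1) and 2 below (Pklr and Slc2a3). Steap3, an iron reductase, was below, at 349.7, 209.01, 187.2 and 52.5. Of heme genes 1 of 13 and of membrane genes 1 of 21 were above, against 3.33% of all genes. Alas2 was at 14787 RPM summed over E11.5 IAHC cells against 4005 to 7477, short of 2-fold over the highest E10.5 group. Scaled to all reads, 1 terminal maturation gene was above and 1 below, 1 glycolysis gene was above, and Hbq1b and Cat were not called. Without the cells holding at least 10 pan-endothelial genes, 2 glycolysis genes were above. The largest differences outside lists included Slc34a2, a phosphate carrier, read in 100% of E11.5 IAHC cells against 0, 9.68 and 90% of Gfi1 HE, Runx1b HE and Mes cells, and the non-coding Scarletltr at 369.9 RPM against 10.6 to 44.4.

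Of the 3 deep globin-rich Gfi1 KO cells, 2 stood apart from those of heterozygous Gfi1 HE. They had 20.8 and 13.4% globin, below the 46.3% of the lowest heterozygous cell. Both had reads of all 20 mitosis genes, within the 1 to 20 (median 19) of the heterozygous cells. Slc4a1 was at 0 RPM in both, against at least 776 in the heterozygous cells. Gfi1b was at 2128 and 651, against 0 to 1783 in the heterozygous cells, so only the first lay outside their range. Gata2 was at 1235 and 21.7, Kit at 156.9 and 21.7, and Gfi1 at 193.4 and 21.7. Gata2, Kit and Gfi1 were read in 0 of 16 heterozygous cells. The remaining KO cell had 48.1% globin, 29.7% Hbb-bh1 and Slc4a1 at 1259 RPM. With 3 cells no comparison of genotype was made. The 3 titled Runx1b KO cells had 46.8, 53.1 and 70.4% globin and 31.01, 24.04 and 30.1% Hbb-bh1, and the Runx1b KO Mes cell 43.02 and 32.7%, all within the span of the heterozygous E10.5 groups.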

How the data were processed

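The authors deposited counts of reads per gene and cell in 2 tables of 1288 and 169 cells, without normalization. The submitters' processing notes list STAR 2.4.2a, HTSeq 0.6.1p1, R 3.6.2, bcl2fastq and GRCm38. Annotation release and strand setting were not given in the sources used here, so antisense partners cannot be told apart. The larger table ends within a row, and 36131 genes held whole in both tables were used. The members and gene lists were chosen with earlier results of these data known. The 4 main sorts held 95 (Gfi1 HE), 262 (Runx1b HE), 107 (Mes) and 22 (E11.5 IAHC) of 1457 cells, the titled Runx1b KO sort 277. Globin shares use all reads, other genes RPM. The smallest p that the exact permutation test allows for 4 pairs is 0.125, or 0.25 where the ACE pair differs by 0. Scaled to all reads, 161 genes were higher in all 4 groups. Reads were summed over cells of a group and compared without a test, since each group is 1 sample. Named genes were the globins, markers, gate genes, up to 6 genes of each of 22 lists by level, and the 12 highest and lowest ratios outside them with 20 RPM and reads in 25% of cells of the higher side. Transcript lengths are from GENCODE M21, promoters from RefSeq. Reads per cell ranged from 12 to 5652968. Without molecular identifiers, intervals (Clopper-Pearson, 95%) and limits (3 counts) cover counting error only. Cells were single-well sorts and no doublet caller was run. Stage labels conflicted for 126 cells. Ahsp and some other listed symbols were not analysed here, and 2 genes of the membrane list are counted in it but not reported by name. Scripts ran in Python 3.11.15 with numpy 2.4.6, pandas 2.3.3, scipy 1.17.1 and biopython 1.88, and were tested on simulated data. Alternatives varied the globin threshold, depth, scaling, filter, weighting, thinning and the groups.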

Additional observations from a re-analysis of the deposited data

Results flagged for a closer look

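Among 35 values of 4 groups examined for 1 group far from the other 3, 3 stood out, and chance flags about 1 in 20. The median log2 ratio of the erythropoietin signalling genes was -1.23 in E11.5 IAHC against 1.43 to 1.74 in the other groups. That of the macrophage genes was 4.75 in Runx1b HE against -6.70 to -5.37, and 1.11 without the cell that held most of these reads. The log2 ratio of Alas2 was 16.6 in E11.5 IAHC against 10.2 to 11.1. No other cell of the E11.5 IAHC sort had Alas2 above 0.586 RPM, and its globin-rich cells had 14787 against 4005 to 7477 RPM in the other groups. Itga2b, which encodes CD41, went in opposite directions, with log2 ratios of 2.35 in Gfi1 HE, 6.55 in Runx1b HE and 4.66 in Mes but -2.49 in E11.5 IAHC, whose gate selects CD41. The Runx1b HE value was 5.08 without the cell with macrophage genes, and the Mes value rests on 1 of 10 cells. The difference was not tested.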

How the results depend on the processing

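Scaling mattered most. Scaled to all reads, 1.78% of 9022 genes measured were higher and 51.7% (4664) lower in all 4 groups, against 4.33% (405) and 19.9% (1856) of 9343 as reported, and 3.34% of calls were higher against 17.9%. List medians were then 11.55 for other globins, 3.56 for heme synthesis, 1.34 for iron supply, 2.45 for oxidant defence and 1.76 for terminal maturation. They were -5.53 for embryonic against definitive genes, -1.82 for replication and -1.65 for glycolysis, and turned negative for erythroid transcription factors (-0.018 from 1.39), erythropoietin signalling (-0.26 from 1.15) and mitosis (-0.79 from 0.61). At E11.5 1.60% of 4926 genes (79) stood above all E10.5 groups and 26.1% (1287) below, against 3.33% and 13.7% of 7630. Size factors moved the median of all genes by 0.19 and gave 477 higher and 1600 lower. Leaving out 1 group gave 4.68 to 6.21% higher (443 to 632 genes) and 23.7 to 28.5% lower (2270 to 2899), the most without E11.5 IAHC. Without that group the medians turned positive for replication (0.42 from -0.41) and ribosome biogenesis (0.27 from -0.65). Leaving out 1 group gave medians of -5.69 to -3.37 for embryonic against definitive genes and an HE minus Endo difference of 3.53 to 9.56 points. Without the cells holding at least 10 pan-endothelial genes, chosen after seeing the data, medians were -8.89 for pan-endothelial and -5.48 for embryonic against definitive genes. The cause of the differences between groups was not tested. No paired analysis was possible by replicate number, because these numbers name single cells; the HE and Endo sorts were paired by line and stage.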
